A study of Arabidopsis thaliana with 12 samples.

Results

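The question addressed here was whether seedlings of a line labelled hop1 hop2 hop3 answer heat differently from wild-type seedlings, gene by gene. The quantity examined was the difference of heat responses: the log2 change from control to heat in the mutant minus the same change in the wild type, called the interaction below. A negative interaction means a lower response in the mutant, and a positive one a higher response. Of the 32833 genes in the deposited table, 23827 had a normalized value of at least 1 in at least 3 of the 12 libraries and were tested, and the remaining 9006 were not.

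RNA came from whole 7-day-old Arabidopsis thaliana seedlings. The wild type was the accession Col-0 (wt). The mutant carried the hop1, hop2 and hop3 mutations together and is called hop here. Both genotypes were either kept in control conditions or exposed to 38 °C for the final 3 h, which gave 4 groups of 3 libraries (wt control and wt heat, hop control and hop heat). Neither the kind of mutation at each HOP gene nor the number of seedlings per library was stated in the sources used here. As given below, HOP1 was not lower in hop and HOP2 under heat reached 59% of its wt mean, so the line is called by its label. Separate growth of the replicates is not stated either, and the p-values therefore reflect only the spread between these libraries, which may be technical. Because whole seedlings were extracted, fewer cells of a type and less RNA per cell cannot be told apart.

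HOP proteins (HSP70-HSP90 organizing proteins) are co-chaperones that bind both HSP70 and HSP90 and help pass client proteins from one to the other. In the plant heat response, heat shock transcription factors bind inverted GAA repeats in promoters and switch on chaperone genes, among them HSP101, HSP90, HSP70 and the small heat shock proteins. Chaperones also hold heat shock factors inactive in unstressed cells, so that a co-chaperone can act on the response as well as belong to it. In Arabidopsis the HOP family is known for a role in long-term acquired thermotolerance.

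The responses of the genotypes were close for most genes, and 12 genes passed the test of a difference. Those 12 were 0.0504% of the genes tested (limma on log2(value + 1), Benjamini-Hochberg adjusted p under 0.05 over all genes tested). The interaction was positive in 3 of them and negative in 9. A rise under heat was weaker in hop for GDPD1, SHM7 and HAM1 and stronger for HOP2 and AT4G20350. A fall was weaker in hop for PCMP-E88 and stronger for BHLH114, AT1G61300, AT2G40980, AT5G15270 and CSN5A, while NIA2 rose in wt and fell in hop. These directions are those of the deposited normalized values and depend on their scaling. With DESeq2 on the recovered fragment counts the number was 176 (47 higher, 129 lower) and with edgeR 34 (3 higher, 31 lower). Limma with a block for the replicate number called 34 genes, and with that block within each condition 385, all 12 included. The labels do not say that same-numbered libraries belong together, so the size of the difference depends on an unknown of the design. The 4 genes without a symbol are named because all 12 are given, which was decided after their values were seen.

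The number of calls depended on single libraries. Leaving out a library gave 11 calls without wt control replicate 1, 5 without replicate 2 and 1 without replicate 3. It gave 4, 3 and 4 calls without wt heat replicates 1, 2 and 3. It gave 2, 6 and 15 without hop control replicates 1, 2 and 3, and 5, 5 and 94 without hop heat replicates 1, 2 and 3. The omission of hop heat replicate 3 thus moved the count most, and its 94 calls included all 12 genes. HOP2 was called in all 12 of these fits, AT1G61300 in 11, PCMP-E88 in 10 and GDPD1 in 7. AT4G20350 was called in 5, SHM7 and AT2G40980 in 4 each, BHLH114 and NIA2 in 2 each, and HAM1, AT5G15270 and CSN5A in 1 each. The direction of all 12 interactions was the same in every one of the 22 alternatives run. The highest adjusted p across these 12 fits was 5.21e-09 for HOP2, 0.0666 for AT1G61300, 0.0666 for PCMP-E88, 0.0666 for GDPD1 and 0.15 for NIA2.

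**Figure D1:**
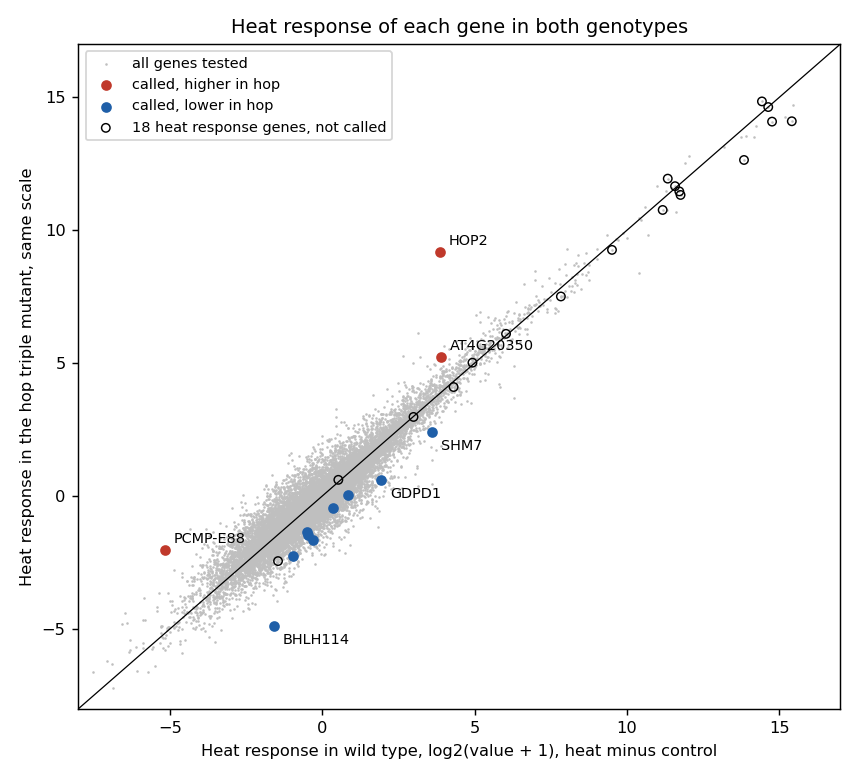
Heat response of each tested gene in wt (horizontal axis) and in hop (vertical axis), both as differences of log2(normalized value + 1), with the diagonal of equal responses. Grey points are the 23827 genes tested, red and blue points the 12 called genes with a higher or lower response in hop, and open circles 18 heat response genes, none of which was called; most genes lie near the diagonal, with HOP2 far above it and BHLH114 far below.

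The promoters of GDPD1 and SHM7, the called genes with the largest weakening of a rise, are shown here to set a window with a heat shock element core beside one without. The sequences are the 250 bases before the annotated start, 5′ to 3′ on the gene's strand, from the RefSeq annotation of the TAIR10.1 build, and genes were matched by their identifier because the deposited table holds no coordinates. The GDPD1 window lies on the minus strand at chr3:350011-350260 and the SHM7 window on the minus strand at chr1:13698740-13698989. Capitals mark a heat shock element core, searched as GAANNTTC or TTCNNGAA, each of which is its own reverse complement and so covers both strands.
GDPD1: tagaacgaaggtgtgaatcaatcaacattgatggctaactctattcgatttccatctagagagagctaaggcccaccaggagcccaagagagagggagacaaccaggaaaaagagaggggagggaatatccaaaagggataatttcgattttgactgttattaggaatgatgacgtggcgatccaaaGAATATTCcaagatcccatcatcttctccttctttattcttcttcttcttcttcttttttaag
SHM7: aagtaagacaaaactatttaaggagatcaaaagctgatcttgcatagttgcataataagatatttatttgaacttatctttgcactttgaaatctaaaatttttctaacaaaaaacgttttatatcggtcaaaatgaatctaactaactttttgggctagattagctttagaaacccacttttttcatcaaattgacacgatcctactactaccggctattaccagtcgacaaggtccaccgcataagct
The core was found in 1 of the 12 promoters of called genes, that of GDPD1, and in 16.0% of the 23558 promoters of tested genes that the annotation gave. A match is only a match of letters, and its absence says nothing about which factor acts on a gene.

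The mutated genes were examined first, as a check of the labels. HOP2 had 483, 635 and 548 normalized fragments in the 3 wt control libraries and 8629, 7318 and 8058 in wt heat. In hop it had 7.68, 6.36 and 7.15 at control and 5128, 4046 and 4979.7 under heat. The hop control libraries lay far below every wt library, and the hop heat libraries lay below wt heat but far above wt control. The mean in hop was thus 1.27% of that in wt at control and 59% under heat. The response was 3.85 (log2) in wt and 9.19 in hop, and the interaction of 5.34 ± 0.17 (SE, 95% interval 4.97 to 5.7) was the largest of all genes tested (limma, adjusted p = 1.27e-10). HOP2 was also called between the genotypes at control (log2 difference -6.1) and under heat (-0.77). The annotation places another gene, AT1G62750, over part of HOP2, and how reads shared by both were counted is not given in the sources used here.

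HOP3, the most strongly heat-induced of the family in wt, had 78.5, 88.5 and 75.2 in wt control and 122464, 89090.3 and 122589 in wt heat. Its values were 9.39, 4.24 and 0 in hop control and 1254, 1216 and 1346 in hop heat. No hop library reached the wt library of the same condition, and the hop heat mean was 1.14% of the wt heat mean. The 2 responses, 10.4 and 8.39, gave an interaction of -2.01 ± 0.97 (SE, 95% interval -4.22 to 0.20), which did not pass the test (limma, adjusted p = 0.571). Without hop control replicate 3, in which HOP3 was at 0, the interaction was -2.97 with an adjusted p of 0.00793. The interval is wide, and the hop control values are low and differ between replicates. The annotation places another gene, AT4G12390, over part of HOP3.

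HOP1 was not lower in the libraries labelled hop. It had 538, 726 and 684 in wt control and 554, 557 and 676 in hop control, which overlap. Under heat the values were 1359, 991 and 1298 in wt and 2250.0, 1654 and 2299 in hop, and all 3 hop libraries lay above all 3 wt libraries. The interaction of 0.88 ± 0.22 (SE, 95% interval 0.41 to 1.35) missed the threshold (limma, adjusted p = 0.149), while the difference under heat alone was called (log2 0.76, adjusted p = 0.00869). A count over the whole gene does not show whether the transcript is intact and does not check the label for HOP1.

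Genes whose rise was weaker in hop came from phospholipid, one-carbon and chromatin functions. GDPD1 (AT3G02040), a chloroplast glycerophosphodiester phosphodiesterase that releases glycerol-3-phosphate and is known to be induced by phosphate starvation, had 531, 603 and 561 in wt control and 2396, 2526 and 1694 in wt heat. In hop it had 469, 397 and 448 at control and 698, 679 and 605 under heat. The heat groups did not overlap, and the highest hop heat library lay far below the lowest of wt. The mean rose 3.9-fold in wt and 1.51-fold in hop, and the interaction was -1.35 ± 0.19 (SE, 95% interval -1.75 to -0.95) (limma, adjusted p = 0.0169). As a share of all fragments of a library, GDPD1 rose in wt but fell in hop. Its rise in hop therefore rests on the size factors by which the counts were divided. A neighbour, AT3G02030, overlaps it in the annotation.

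SHM7 (AT1G36370) encodes a serine hydroxymethyltransferase, an enzyme of one-carbon metabolism that in Arabidopsis is linked to the response to sulfur deficiency. It had 360.5, 412 and 328 in wt control and 313, 354 and 259 in hop control, which overlap. Under heat it had 4164, 4254 and 4992 in wt and 1746, 1511 and 1679 in hop. The gene rose in both genotypes, but no hop heat library came near a wt heat library. The mean rose 12.2-fold in wt and 5.33-fold in hop (interaction -1.19 ± 0.17 (SE, 95% interval -1.55 to -0.82); limma, adjusted p = 0.0219).

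HAM1 (AT5G64610) encodes a MYST-family histone acetyltransferase. In wt it had 382, 423 and 398 at control and 718, 736 and 725 under heat. In hop it had 413, 388 and 432 at control and 412, 387 and 460.3 under heat. The wt heat libraries alone stood apart, and the other 3 groups overlapped. The response was 0.86 in wt and 0.03 in hop, and the latter did not pass the test (limma, adjusted p = 0.799). The interaction was -0.83 ± 0.13 (SE, 95% interval -1.11 to -0.55) (limma, adjusted p = 0.0344). AT5G64600 overlaps HAM1 in the annotation.

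Besides HOP2, the stronger rise was that of AT4G20350, a gene without a symbol that the reference describes as an oxidoreductase. It had 52.9, 54.1 and 49.4 in wt control and 27.3, 33.2 and 33.1 in hop control. Under heat it had 794, 857 and 726 in wt and 1202, 1030.3 and 1420.1 in hop. The groups did not overlap in either condition, with hop the lower at control and the higher under heat. It was, with HOP2, 1 of the 2 called genes that also differed between the genotypes at control, and its interaction was 1.34 ± 0.19 (SE, 95% interval 0.93 to 1.74) (limma, adjusted p = 0.0207). Part of the gene lies under AT4G20360 and a long non-coding RNA gene, AT4G20362, so its reads may not be its own. Overlaps were searched without regard to strand, and whether the genes lie on the same strand was not checked.

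The one fall that was weaker in hop was that of PCMP-E88 (AT3G09040), a mitochondrial pentatricopeptide repeat protein. Proteins of this family bind organelle RNAs. It had 31, 36.9 and 37.2 in wt control and 35.9, 35.4 and 40.9 in hop control, which overlap. All 3 wt heat libraries were at 0, while the hop heat libraries had 7.95, 7.26 and 10.3. Taking 3 fragments over the group of 3 libraries as the limit that a count of 0 allows, a mean value of 1.42, the level in wt was at least 24.8-fold lower under heat than at control. The mean in hop heat was 0.228 of that in hop control and at least 6.01-fold higher than in wt heat. The fitted interaction of 3.14 ± 0.40 (SE, 95% interval 2.29 to 4.0) depends on the value added before the logarithm (limma, adjusted p = 0.0092). With 5 added it was 1.34 and not called.

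Falls that were stronger in hop concerned a transcription factor, a presumed immune receptor, a kinase, an RNA-binding protein and a signalosome subunit. BHLH114 (AT4G05170), a basic helix-loop-helix transcription factor, had 27.4, 12.9 and 17.2 in wt control and 39.3, 21.2 and 27.3 in hop control. In wt heat it had 7.93, 4.96 and 3.95. It was at 0 in all 3 hop heat libraries. The limit that this allows over the group is a mean value of 1.24, so the level in hop was at least 23.54-fold lower under heat than at control and at least 4.52-fold lower than in wt heat. The fitted interaction of -3.29 ± 0.53 (SE, 95% interval -4.42 to -2.16) rests on those zeros (limma, adjusted p = 0.0344). The call was lost with 5 in place of 1 added before the logarithm (-1.58) and in edgeR's quasi-likelihood test (adjusted p = 0.0935).

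AT1G61300, described in the reference as a probable disease resistance protein, had 476, 374 and 350.1 in wt control and 321, 318 and 329 in wt heat. In hop it had 308, 344 and 296 at control and 105, 100.1 and 96 under heat. The hop heat libraries lay far below all others. The interaction was -1.35 ± 0.17 (SE, 95% interval -1.71 to -0.98) (limma, adjusted p = 0.0092), from a response of -0.30 in wt and -1.64 in hop. Genes of this class come in families of similar sequence, and how reads shared between copies were counted is not given.

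AT2G40980, a protein kinase superfamily member, had 141, 156 and 165 in wt heat and 74.2, 62.4 and 51.6 in hop heat, from control means of 302 ± 27.8 in wt and 302 ± 24.8 in hop (SD, n = 3 each). The control groups overlapped and the heat groups did not. Its interaction was -1.29 ± 0.20 (SE, 95% interval -1.72 to -0.87) (limma, adjusted p = 0.0343). AT5G15270, a KH-domain RNA-binding protein, had 348, 387 and 397 in wt heat and 182, 194 and 225 in hop heat, from control means of 525 ± 32.8 and 556 ± 39.3. Again the heat groups alone were separate, with an interaction of -1.0 ± 0.15 (SE, 95% interval -1.32 to -0.67) (limma, adjusted p = 0.0305). CSN5A (AT1G22920), the catalytic subunit of the COP9 signalosome, which removes the ubiquitin-like RUB from cullins, had 346, 361 and 323 in wt heat and 180.2, 178 and 155 in hop heat, from control means of 486 ± 12.9 and 439.5 ± 18.2. All hop heat values were below all wt heat values, and the interaction was -0.86 ± 0.14 (SE, 95% interval -1.15 to -0.56) (limma, adjusted p = 0.0344).

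NIA2 (AT1G37130), which encodes the main nitrate reductase of Arabidopsis, was the one called gene whose responses pointed in opposite directions on the normalized scale. It had 36907, 33828 and 33313 in wt control and 44955, 43625 and 43544 in wt heat. In hop it had 35426, 35012 and 34726 at control and 26927, 25386 and 24610.5 under heat. The control groups overlapped, every wt heat library lay above them and every hop heat library below. Both responses passed the test, with 0.35 in wt and -0.45 in hop, and the interaction was -0.80 ± 0.13 (SE, 95% interval -1.07 to -0.52) (limma, adjusted p = 0.0344). The rise in wt rests on the size factors. There 1 fragment had a value of 0.614 to 0.913 at control and 1.32 to 1.65 under heat, in libraries of 26.1 to 33.9 M and 27.4 to 29.9 M fragments. As a share of all fragments NIA2 fell under heat in wt too.

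**Figure D2:**
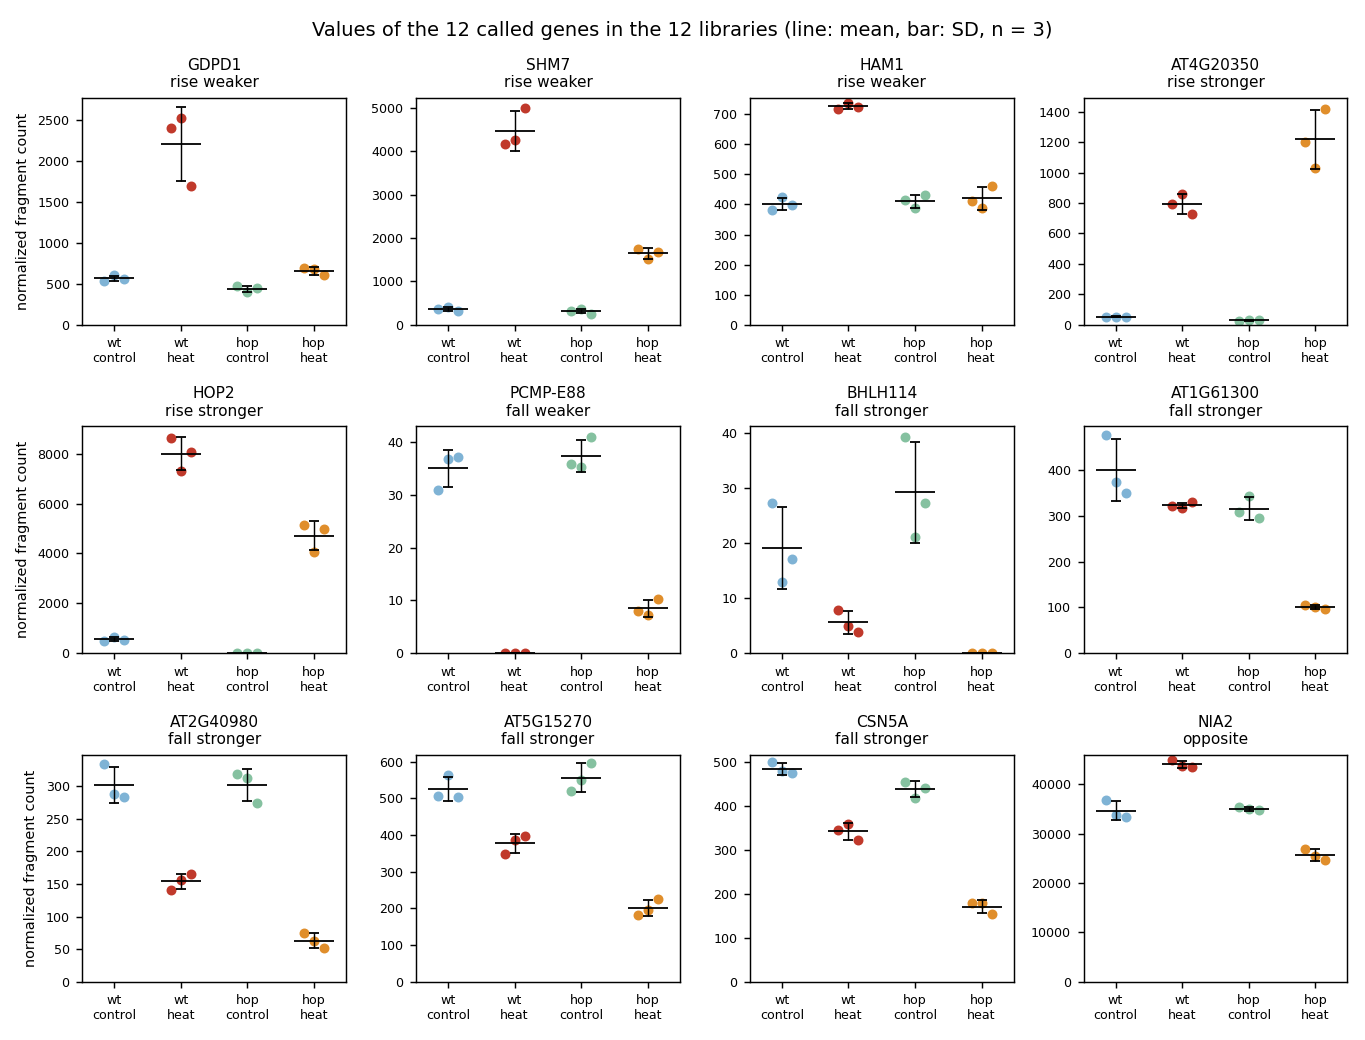
Normalized fragment count (vertical axes, from 0) of the 12 called genes in each library, with 3 points per group (both genotypes at control and under heat), the mean as a line and the SD as a bar. For GDPD1, SHM7, HAM1 and NIA2 the wt heat points lie above the hop heat points, PCMP-E88 is at 0 in all wt heat libraries and BHLH114 in all hop heat libraries.

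Within each condition the genotypes were compared directly. All 12 genes were called between the genotypes under heat, where 2053 genes were called in all (8.62% of those tested), and 2 of the 12 at control, where 198 were called (0.831%). These contrasts share libraries with the interaction and are given as a description. For HOP2 the difference was larger at control than under heat, and for AT4G20350 it was -0.73 at control and 0.61 under heat. Of the 2053 genes that differed under heat, 2041 were not called for the interaction, so a difference under heat was far more often called than a difference of responses. Across both genotypes 18424 genes responded to heat (77.3%), 8776 upward and 9648 downward. Among genes called in both genotypes separately, 14543 of 14561 changed in the same direction and 18 in opposite ones.

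Across all genes tested, the median interaction was 0.02 and the 25th and 75th percentiles were -0.19 and 0.24 (log2). The 5th and 95th percentiles were -0.74 and 0.88. An unadjusted p under 0.05 was reached by 2276 genes (9.55%), 1239 with a lower and 1037 with a higher response in hop. The interval of 14221 genes (59.7%) lay wholly within a difference of 1 on the log2 scale in either direction, and for the remaining genes it reached or lay beyond a difference of that size. Interactions of at least 1 in size were found in 1463 genes, but most had low values. They made up 22.9% of the 4194 genes whose mean was under 10, 2.56% of the 19633 whose mean was 10 or more and 0.623% of the 13957 whose mean was 100 or more. All 12 called genes had a mean of at least 10. As a description across genes, which are not independent replicates, Pearson's r between the responses was 0.955 over all genes tested and 0.985 over those whose mean was 100 or more. The responses share no library.

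Genes of the core heat response did not pass the test. None of 18 genes examined whatever their result was called (0 of 18 against 0.0504% of all genes tested; at an unadjusted p under 0.05 there were 3, namely APX2, HSP90.1 and HSP70b, and edgeR called none). Of the 18 interactions, 6 were positive and 12 negative. The interval lay within 1 of zero for 11 of them, and for the other 7 the interval included a difference of 1 on the log2 scale.

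HSFA2, the heat-induced factor that prolongs the heat response, had 7.3, 1.23 and 2.86 in wt control and 12, 11.3 and 7.15 in hop control. It reached 63187, 63306 and 55914 in wt heat and 80375, 83886 and 49930.0 in hop heat, and the heat groups overlapped. Its interaction was -1.2 ± 0.60 (SE, 95% interval -2.55 to 0.15) (limma, adjusted p = 0.588), from control values of at most 12. DREB2A, a transcription factor of drought and heat, had 3352, 2588 and 3609 in wt heat and 2675, 2848 and 3132 in hop heat, which overlap, and an interaction of 0.09 ± 0.23 (SE, 95% interval -0.40 to 0.57). MBF1C, a heat-induced co-activator, had 97978, 94409.6 and 92516 in wt heat and 100434, 105737 and 84499 in hop heat, also overlapping, with an interaction of -0.25 ± 0.16 (SE, 95% interval -0.58 to 0.09).

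HSP101, the disaggregase that thermotolerance requires, had 79.4, 86 and 93.8 in wt control and 108, 95.5 and 87.1 in hop control. Under heat it had 261080.0, 293444 and 245319 in wt and 350658, 370680.0 and 237014 in hop. Hop heat replicates 1 and 2 were above all of wt and replicate 3 was below them, so the groups overlapped. The interaction was 0.08 ± 0.21 (SE, 95% interval -0.36 to 0.52). Its partner in heat memory, HSA32, had 31297, 36908 and 32576 in wt heat and 31366, 26295 and 30260.0 in hop heat, with an interaction of -0.32 ± 0.19 (SE, 95% interval -0.74 to 0.09).

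HSP90.1, the heat-induced cytosolic HSP90, had 138, 146 and 112 in wt control and 195, 226 and 190.4 in hop control, and the groups did not overlap. Under heat it had 455165, 464692 and 449986 in wt and 547411, 577401 and 452742 in hop, which overlap. The mutant started higher and the interaction was -0.43 ± 0.17 (SE, 95% interval -0.79 to -0.07) (limma, adjusted p = 0.403), while the control difference of 0.63 was itself called (adjusted p = 0.0218).

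HSP70b, a heat-induced cytosolic HSP70, went the other way. It had 131, 114 and 125 in wt control, all above the hop control values of 106, 89.1 and 82.5. Under heat it had 321170.0, 339133 and 303132 in wt and 392653, 424574 and 290501 in hop. The interaction was 0.60 ± 0.19 (SE, 95% interval 0.20 to 1.0) (limma, adjusted p = 0.262), and without hop heat replicate 3 it was 0.77 with an adjusted p of 0.047. HSP70-4, a close relative, had an interaction of -0.41 ± 0.24 (SE, 95% interval -0.93 to 0.11), with means under heat of 569815 ± 61773 in wt and 662501 ± 139506 in hop (SD, n = 3 each). The HSP70 and small heat shock protein genes have near-identical relatives, and how reads shared between copies were counted is not given.

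Small heat shock proteins, which hold unfolded proteins until they can be refolded, rose from low to very high levels in both genotypes. At control HSP17.6C had 41.1, 6.76 and 15.8 in wt and 57.2, 26.2 and 14.9 in hop, HSP21 4.56, 3.69 and 3.58 and 14.5, 0.707 and 1.95, and HSP22.0 21.9, 3.07 and 3.58 and 23.9, 6.36 and 2.6. The control groups of all 3 overlapped, and replicate 1 was the highest in each. Under heat HSP17.6C reached 509103, 456860.0 and 498000.0 in wt heat and 508753, 501919 and 513673 in hop heat, groups that overlap. HSP21 of the chloroplast reached 109579, 93831 and 123458 and 119002, 107697 and 153891, and HSP22.0 of the endoplasmic reticulum 202446, 162812 and 211664 and 209285, 224791 and 227991, in the same order. Their interactions were -0.68 ± 0.85 (SE, 95% interval -2.61 to 1.26), 0.42 ± 0.94 (SE, 95% interval -1.71 to 2.54) and -0.00 ± 1.1 (SE, 95% interval -2.5 to 2.49), and the intervals are wide. The interaction of HSP21 was negative in edgeR and DESeq2, and that of HSP22.0 took either sign among the alternatives.

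The peptidyl-prolyl isomerases ROF1 and ROF2, which bind HSP90, had interactions of 0.07 ± 0.15 (SE, 95% interval -0.25 to 0.39) and -0.26 ± 0.16 (SE, 95% interval -0.60 to 0.09). Under heat ROF2 had 237725, 200780.0 and 251256 in wt and 227201, 196090.0 and 262508 in hop, which overlap. APX2, a heat-induced cytosolic ascorbate peroxidase, was near 0 in wt control (0, 0.614 and 0) and slightly above it in hop control (3.42, 4.24 and 0.65). It reached 48886, 57359.6 and 46909.8 in wt heat and 63607, 52849 and 60755 in hop heat. The interaction of -1.31 ± 0.52 (SE, 95% interval -2.47 to -0.15) (limma, adjusted p = 0.446) therefore rests on control values near 0, and without hop control replicate 3 it was -1.82 with an adjusted p of 0.016.

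Genes of the unfolded protein response of the endoplasmic reticulum were likewise not called. BIP1 and BIP2, near-identical luminal HSP70s, had interactions of -0.21 ± 0.15 (SE, 95% interval -0.52 to 0.10) and -0.02 ± 0.17 (SE, 95% interval -0.39 to 0.35). BIP3, the form that rises most under such stress, did not rise in these libraries. Its mean was 16.9 ± 8.96 in wt control and 7.15 ± 7.6 in wt heat (SD, n = 3). In hop it was 31 ± 18 at control and 4.96 ± 4.51 under heat (SD, n = 3). The interaction of BIP3 was -1.0 ± 1.03 (SE, 95% interval -3.21 to 1.22). The factor bZIP60 had 695, 778 and 647 in wt heat and 771, 863 and 587 in hop heat and an interaction of 0.08 ± 0.19 (SE, 95% interval -0.33 to 0.49). The replicates of BIP3 ranged widely within each group, and its interval is wide.

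**Figure D3:**
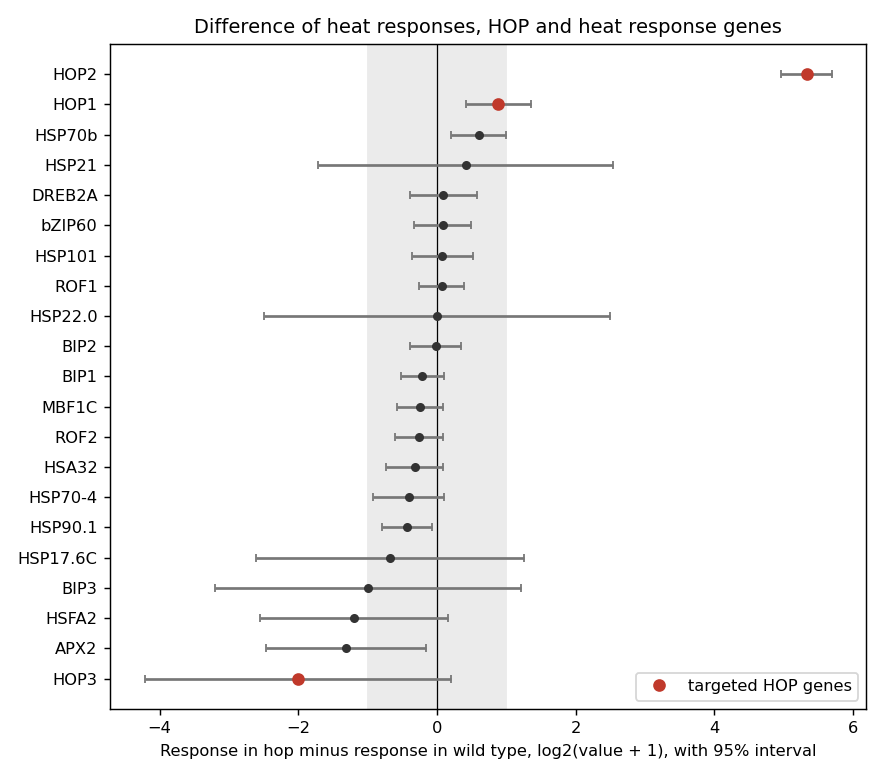
Response in hop minus response in wt on the log2(value + 1) scale (horizontal axis) for the 3 HOP genes, in red, and 18 heat response genes, each with its 95% interval; the grey band spans a difference of 1 either way. HOP2 lies at 5.34, and 11 of the 18 heat response genes have intervals wholly within the band.

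By size of the heat response, strongly induced genes as a whole leaned to a slightly higher response in hop, but the extreme ones did not. For the 634 genes with a mean response of 3 to 5 the median interaction was 0.13, and 34.9% had the smaller response in hop. For the 246 genes at 5 to 9 it was 0.21, with 32.9% smaller in hop. For the 37 genes at 9 or more it was -0.20, with 62.2% smaller in hop. In the classes below 3, from the strongest falls upward, the median lay between -0.02 and 0.04. These medians carry no test, because genes of one library share its normalization. With edgeR on library size alone the median at 5 to 9 was 0.05, and without hop control replicate 1 the median at 9 or more was 0.0050. The latter median was -0.03 with 5 added before the logarithm. It was -0.02 without wt control replicate 3 and -0.04 without hop heat replicate 3, but -0.37 without wt control replicate 1. The lean of the most induced genes thus depended on single libraries and on the value added.

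**Figure D4:**
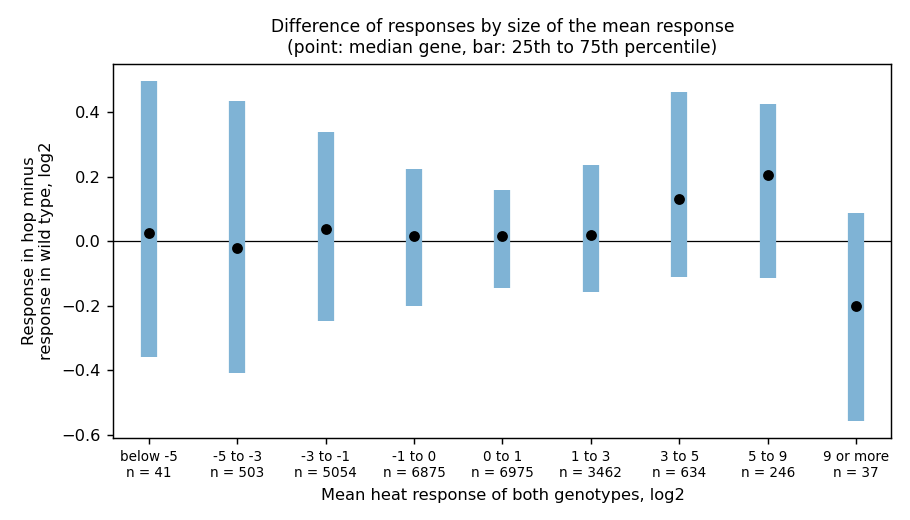
Response in hop minus response in wt (vertical axis, log2) for genes grouped by the mean heat response of both genotypes (horizontal axis, log2), with the number of genes below each class. Points are medians and bars run from the 25th to the 75th percentile of genes; the medians are 0.13 at 3 to 5, 0.21 at 5 to 9 and -0.20 at 9 or more.

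The 33 gene lists held 539 tested genes, of which 4 were called: HOP2, SHM7, GDPD1 and NIA2. Membership of the last 3 was decided with their results known, so the count is not evidence about their lists. All lists were written with earlier results of these data known. The shares at an unadjusted p under 0.05 given below are therefore a description and not evidence about any list. In the lists of chaperones, their regulators and protein turnover, limma called no gene other than HOP2. An unadjusted p under 0.05, which 9.55% of all genes tested reached, was found for 2 of 17 small heat shock proteins, 1 of 16 HSP70 genes, 3 of 10 HSP90 and HSP100 genes, 3 of 22 co-chaperones, 1 of 21 heat shock factors, 1 of 13 thermotolerance genes, 1 of 32 genes of the endoplasmic reticulum and 3 of 20 autophagy genes, and for none in the other chaperone and turnover lists, and edgeR too called HOP2 alone. The median interaction was -0.24 over 17 small heat shock proteins, -0.02 over 16 HSP70 genes, 0.09 over 10 HSP90 and HSP100 genes, -0.17 over 11 organellar chaperonins and 0.07 over 22 co-chaperones. The median over all genes tested was 0.02. It was -0.01 over 21 heat shock factors, -0.05 over 6 DREB2 and MBF1 regulators, 0.07 over 13 genes of acquired thermotolerance, -0.01 over 32 genes of protein quality control in the endoplasmic reticulum, 0.01 over 34 proteasome subunits and -0.01 over 20 autophagy genes. All 34 proteasome genes, all 20 autophagy genes and all 11 chaperonins had intervals within 1 of zero, against 59.7% of all genes tested. So did 30 of 32 genes of the endoplasmic reticulum, 13 of 16 HSP70, 9 of 10 HSP90 and HSP100 and 18 of 22 co-chaperone genes. The number was 5 of 6 for DREB2 and MBF1 regulators, 13 of 21 for heat shock factors, 7 of 13 for thermotolerance genes and 5 of 17 for small heat shock proteins. Interval width varied with level (median SE 0.73 at a mean under 10, 0.18 at 100 or more).

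The other called list genes belonged to sulfur deficiency, phosphate starvation and nitrate lists, where they had been placed with their results known. The other members of these lists were also chosen with earlier results known. Among 14 sulfur-deficiency genes the median was -0.32, SHM7 was called, and 6 reached an unadjusted p under 0.05, 5 of them with a lower response in hop, where 9.55% of all genes tested reached it. The adenosine 5'-phosphosulfate reductases, which reduce activated sulfate, had means of 2909 ± 302 in wt heat and 1932 ± 196 in hop heat for APR1, 10096 ± 1155 and 5420.4 ± 434 for APR2 and 7805 ± 663 and 3482 ± 352 for APR3 (SD, n = 3). Their interactions were -0.41 ± 0.16 (SE, 95% interval -0.75 to -0.07), -0.83 ± 0.22 (SE, 95% interval -1.31 to -0.35) and -1.15 ± 0.20 (SE, 95% interval -1.58 to -0.72), with limma adjusted p-values of 0.399, 0.196 and 0.0642, and edgeR called APR3 (adjusted p = 0.0295). All 3 were induced in both genotypes. The APR genes were chosen here after their values were seen.

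Among 13 phosphate-starvation genes the median was -0.22, and GDPD1 was the one called. An unadjusted p under 0.05 (limma) was reached by 3 of them, all with a lower response in hop, and by 9.55% of all genes tested. Among 11 genes of nitrate uptake and reduction the median was -0.25, with NIA2 called, and 5 reached that unadjusted p (4 lower, 1 higher in hop). NIA1, the second nitrate reductase, had an interaction of -0.52 ± 0.19 (SE, 95% interval -0.92 to -0.12) (limma, adjusted p = 0.354), and the high-affinity transporter NRT2.1 one of 1.1 ± 0.49 (SE, 95% interval 0.04 to 2.15) (limma, adjusted p = 0.508). For 16 genes of aliphatic glucosinolate synthesis the median was 0.48, and all 6 with an unadjusted p under 0.05 had a higher response in hop. CYP79F2, which starts the pathway from chain-elongated methionine, had 0, 4.96 and 2.64 in wt heat and 11.9, 11.6 and 16.5 in hop heat, and an interaction of 3.1 ± 0.75 (SE, 95% interval 1.51 to 4.7) that missed the threshold (limma, adjusted p = 0.14). In wt heat libraries 1 fragment had a value of 1.32 to 1.65, so this interaction rests on values near the floor. MAM1, an enzyme of that chain elongation, had an interaction of 0.66 ± 0.16 (SE, 95% interval 0.31 to 1.0) (limma, adjusted p = 0.141). These genes were likewise named after their values were seen.

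Other lists had no called gene. Medians were 0.34 for 25 cell cycle genes, 0.26 for 16 flavonoid synthesis genes, 0.25 for 8 indole glucosinolate and 11 iron deficiency genes each, 0.12 for 18 jasmonate genes and 0.11 for 30 genes of abscisic acid, osmotic and cold response. They were 0.08 for 35 photosystem, antenna and RuBisCO genes and for 10 PIF and shade genes, 0.05 for 22 immune genes, -0.04 for 18 clock genes, -0.07 for 20 genes of reactive oxygen and for 19 SR splicing factors, and -0.09 for 23 auxin genes. An unadjusted p under 0.05 (limma) was reached by 9.55% of all genes tested. With 0 calls, the count at that level was 6 of 25 for the cell cycle list (5 higher, 1 lower in hop) and 5 of 30 for abscisic acid. It was 5 of 23 for auxin, 4 of 16 for flavonoids and 4 of 18 for jasmonate. The immune list had 2 of 22, the clock 2 of 18 and SR factors 2 of 19. Reactive oxygen had 1 of 20, indole glucosinolates 1 of 8 and iron 1 of 11. The 35 photosystem and 10 shade genes had 0. The edgeR test called none of these genes.

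**Figure D5:**
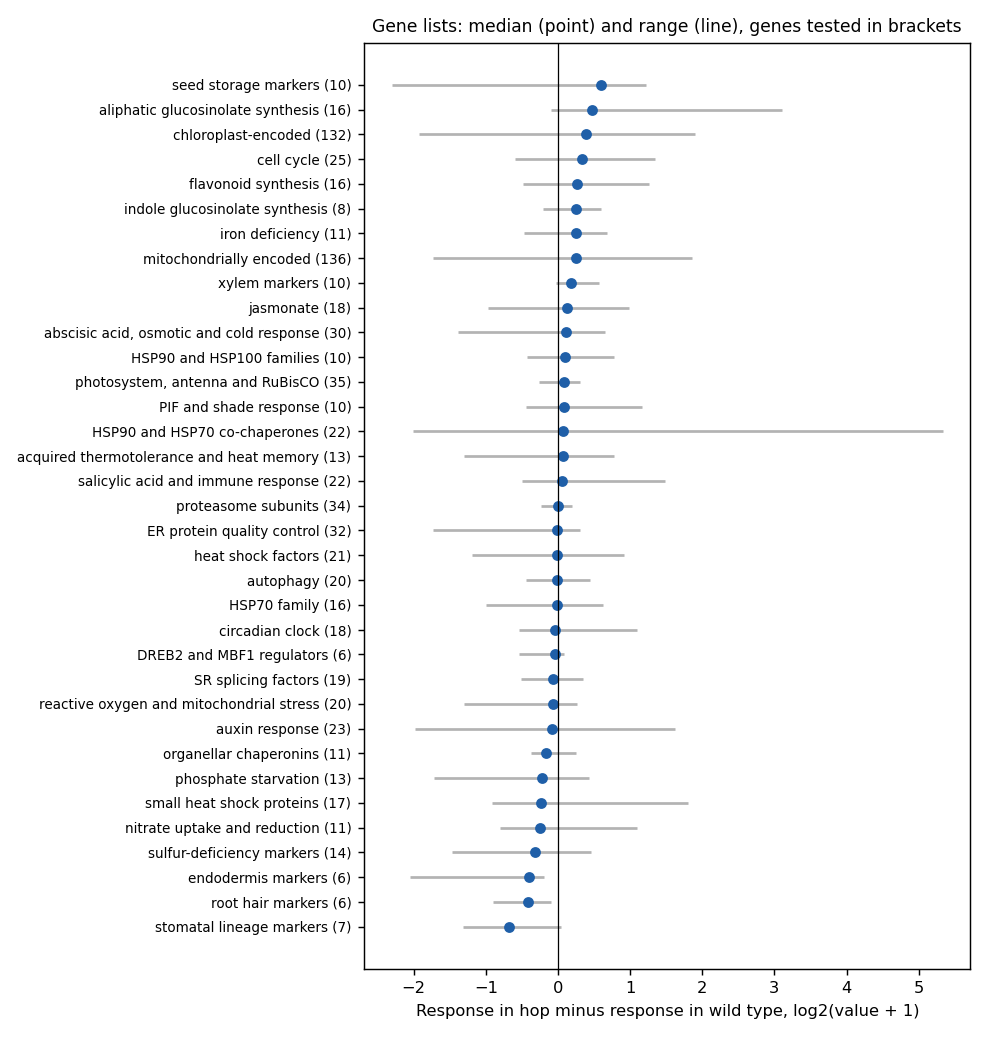
Response in hop minus response in wt (horizontal axis, log2) for each gene list and for chloroplast and mitochondrially encoded genes, with the median as a point, the lowest and highest gene as ends of the line, and the number of genes tested in brackets. Medians range from -0.68 for stomatal lineage markers to 0.60 for seed storage markers.

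With edgeR's quasi-likelihood test on the recovered fragment counts 34 genes were called (0.143%), 3 higher and 31 lower, including 11 of the 12 above. The 23 genes that limma did not call all had a lower response in hop, with limma adjusted p-values from 0.0587 to 0.0874. By class, 10 fell more strongly in hop, 7 had a smaller rise and 6 had responses of opposite sign. Of those 6, only AT5G48680 passed the test of the response in both genotypes (limma, adjusted p = 4.77e-04 in wt and 0.0134 in hop), and the other 5 fell in hop and did not pass in wt. Some are named here, chosen after their values were seen. FTM1, a stearoyl-acyl carrier protein desaturase, rose from 14.4 ± 3.12 to 230.4 ± 39.5 in wt and from 22.4 ± 5.32 to 85.3 ± 20.5 in hop (SD, n = 3), with an interaction of -2.03 ± 0.35 (SE, 95% interval -2.77 to -1.29). CSLB03, a cellulose synthase-like gene, rose to 499.7 ± 33.7 in wt and 264 ± 34.8 in hop. RAV1, an AP2 and B3 domain transcription factor, fell to 763 ± 92.6 in wt and 317 ± 82.8 in hop from control means of 1666 ± 243 and 1555 ± 75.1. BXL1, a cell wall beta-xylosidase, had 28770.2 ± 1307 in wt heat and 17450.4 ± 2790.1 in hop heat from control means of 23043 ± 2891 and 28647 ± 5362, and its response passed the test in hop (-0.71) but not in wt (0.33; limma, adjusted p = 0.0547).

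Some measures of tissue and library moved with these contrasts. Libraries held 26.1 to 38.7 M fragments, 27.4 to 29.9 M in wt heat and 32.1 to 38.7 M in hop heat. Mitochondrially encoded genes took 0.737 to 0.876% of fragments in wt heat and 1.02 to 1.29% in hop heat, and their median interaction was 0.25 over 136 genes. Chloroplast-encoded genes took 3.76 to 7.65% in wt heat and 5.18 to 9.35% in hop heat, with a median of 0.39 over 132 genes. Neither limma nor edgeR called any of these organelle genes. An unadjusted p under 0.05 (limma) was reached by 11 of 136 mitochondrial and 12 of 132 chloroplast genes, where 9.55% of all genes tested reached it. The summed level of 7 stomatal lineage markers was 454 to 487 at control and 376 to 412 under heat in wt, and 424 to 441 at control and 225 to 343 under heat in hop, and 6 of the 7 had a negative interaction (median -0.68). All 6 root hair markers and all 6 endodermis markers had negative interactions (medians -0.42 and -0.40), with summed levels that overlapped between wt heat (614 to 813 and 1727 to 2565) and hop heat (473 to 681 and 1234 to 2619). Of the 23827 genes tested, 11148 had a negative interaction. Xylem markers summed to 3331 to 4166 in wt heat and 4271 to 4326 in hop heat, with a median interaction of 0.17, and seed storage markers to 48.9 to 786 and 246 to 676, with a median of 0.60. None of these markers was called by limma or edgeR, 3 reached an unadjusted p under 0.05 (1 each for root hair, endodermis and stomatal lineage), and the one seed storage marker at 0 in a whole group was CRU2 in wt heat. The part of these shifts in the differences of responses was not tested.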

How the data were processed

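RNA was sequenced from 12 Arabidopsis seedling libraries. Per the submitters' processing notes the tools were TopHat2 2.1.0, HTSeq and DESeq2 1.1.14, and per the labels' protocols the kit keeps strand. The deposited table is labelled stranded, and neither build nor annotation nor other counting settings are given in the sources used here. Per the file headers the deposited signal is normalized fragments, which is a fragment count divided by 1 size factor per library. Their fold changes and p-values were not used. All values became whole fragments within 0.01 after division by the value of 1 fragment (100%).

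The test was limma 3.58.1 (trend, robust; R 4.3.3) on log2(value + 1), with 4 group means in 1 fit, over genes reaching a value of 1 in 3 or more samples, adjusted by Benjamini-Hochberg. Fold changes on this scale understate changes of low genes. edgeR 4.0.16 and DESeq2 1.42.0 on the recovered counts were alternatives, beside other filters, pseudocounts, replicate blocks and leaving out each library. The test was checked on simulated data. Limits for counts of 0 cover counting error only.

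Named genes were the HOP genes, called genes with a symbol and a mean of at least 10 (up to 8 per class), up to 3 called members per list, and 18 heat genes; any other gene is marked in the text as picked after its values were known. The members and lists were chosen with earlier results of these data known. Of 557 list entries, 2 were left out because name and identifier disagreed. Identifiers matched the reference for 99.1% of genes.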

Additional observations from a re-analysis of the deposited data

Results flagged for a closer look

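The 12 genes below were singled out because their heat response differed between wt and hop by the test of the difference itself (limma, adjusted p under 0.05), and each value is the response in hop minus the response in wt on the log2(value + 1) scale. Positive values were 5.34 for HOP2, 3.14 for PCMP-E88 and 1.34 for AT4G20350. Negative values were -3.29 for BHLH114, -1.35 for GDPD1, -1.35 for AT1G61300, -1.29 for AT2G40980, -1.19 for SHM7, -0.996 for AT5G15270, -0.86 for CSN5A, -0.83 for HAM1 and -0.80 for NIA2. The values of HOP2 come from 1 of the mutated genes, and those of PCMP-E88 and BHLH114 rest on a group of libraries at 0. AT4G20350, HOP2, HAM1 and GDPD1 each share part of their locus with another annotated gene, on either strand. Single outlying values within a group of 3 libraries were not searched for.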

How the results depend on the processing

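The 12 interactions kept their direction under all 22 alternatives, but the number of calls moved widely, and with 3 libraries a group the depth and the spread between replicates limit what can be called. Another filter on low values, a pseudocount of 0.5 or 5 or limma without its robust option gave 11 to 13 calls, of which 10 to 12 were among the 12. The quasi-likelihood test of edgeR with TMM called 34 genes (3 higher, 31 lower; by its own responses 10 weaker, 17 stronger and 7 opposite in hop), 33 of them also under heat and 5 at control. On library size alone it called 5 (1 higher, 4 lower), with 0 weaker, 4 stronger and the remaining gene opposite in hop. All 5 were also called under heat and 1 at control, and all 5 were among the 12. DESeq2 called 176 (47 higher, 129 lower; 43 weaker, 87 stronger, 46 opposite), 156 also under heat and 20 at control, with 17 list genes, and gave no adjusted p for 4158 genes. Limma without its robust option left 0 opposite genes. HOP1 was called by DESeq2 (0.89), and HOP3 with a pseudocount of 5 (-3.14) and by DESeq2 (-2.17). The cause of these shifts was not tested.

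The labels number replicates 1 to 3 in each group. Same-numbered libraries of both genotypes deviated together with correlations of 0.31, 0.18 and 0.17 at control and 0.06, 0.10 and 0.18 under heat, so not every pair reached 0.1 and the numbers were not taken as pairs. Within each condition every library correlated best with the same-numbered library of the other genotype, which is a hint from the data and not from the design. A fit with the replicate block called 34 genes (7 higher, 27 lower; 9 weaker, 17 stronger, 8 opposite), all 34 also under heat. With the replicate block within condition there were 385 (119 higher, 266 lower; 109 weaker, 191 stronger, 85 opposite), 342 also under heat and 50 at control, with 22 list genes, and HOP1 (0.88) and HSP70b (0.60, adjusted p = 0.0335, limma) were called. Both blocked fits called all 12.

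Leaving out 1 library in turn, the calls ranged from 1 to 94, with 1 to 12 higher and 0 to 82 lower. Weaker responses numbered 0 to 20, stronger 1 to 48 and opposite 0 to 26, and 1 to 87 were also called under heat, 1 to 6 at control and 1 to 7 list genes. The interaction of HOP1 ranged from 0.74 to 1.04, of HOP2 from 5.24 to 5.44 and of HOP3 from -2.97 to -1.28. Among heat response genes near zero the sign changed for some: the range was -0.042 to 0.28 for HSP101, -0.25 to 1.35 for HSP21, -0.81 to 0.76 for HSP22.0, -0.022 to 0.14 for ROF1, -0.071 to 0.21 for DREB2A, -0.13 to 0.12 for BIP2 and -0.038 to 0.24 for bZIP60. The interaction of HSP21 was -0.21 with edgeR (both scalings) and -0.28 with DESeq2, and that of HSP22.0 was 0.066 with a pseudocount of 5. The median at a mean response of 9 or more, a summary added after seeing the data, ranged from -0.37 without wt control replicate 1 to 0.0050 without hop control replicate 1.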
